A study of Mus musculus with 6 samples.

Results

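N6-methyladenosine (m6A) is the most common internal mark of mRNA, and the genes described here encode the proteins that place it and remove it. The set holds 9 genes out of 54446 gene IDs counted: the 7 writer complex genes Mettl3, Mettl14, Wtap, Virma, Zc3h13, Rbm15 and Cbll1, and the 2 eraser genes Fto and Alkbh5. They were picked by name, through their Ensembl gene IDs, with earlier results of these data known; the rule itself uses no measured value. The question here is how far the mRNAs of these genes were recovered with YTHDF2, itself a protein that reads the mark.

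In the writer complex, Mettl3 carries the catalytic activity and Mettl14 forms a heterodimer with it that holds the RNA. Wtap, Virma, Zc3h13, Rbm15 and Cbll1 are the accessory proteins that keep the heterodimer in the nucleus and direct it to its sites. Fto and Alkbh5 are iron-dependent and 2-oxoglutarate-dependent dioxygenases that take methyl groups off. YTHDF2 binds methylated mRNA in the cytoplasm and recruits the CCR4-NOT deadenylase, which shortens the poly(A) tail and leads to decay. In mouse T cells, loss of Mettl3 is known to disturb naive T cell homeostasis and the suppressive function of regulatory T (Treg) cells.

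The series has 3 libraries of a YTHDF2 immunoprecipitation (IP) and 3 libraries of the Input, which is the lysate before precipitation, numbered 1 to 3 in each group. All 6 come from wild-type (WT) mice bearing subcutaneous tumours of B16F10, a mouse melanoma cell line. CD45+ CD4+ Foxp3-GFP+ Treg cells were sorted from the digested tumours, and no other treatment is given; the ages of the animals and the number pooled per library are not given in the labels. Of each lysate 10% was kept as Input, and the remainder was rotated for 4 hours with antibody-coated beads against YTHDF2, which were then washed 6 times. A precipitation with a control antibody, or from cells without YTHDF2, was not analysed here, so "enriched" means more abundant in the IP than in the Input. The labels do not say that the numbered libraries came from separate animals, so every p-value here covers the spread among 3 libraries a group, which may be technical. In these bulk lysates, the number of cells holding a transcript and the amount in each cell cannot be told apart. The sorted cell type was not checked against its markers, because the files name no gene and the reference table used here pairs no Ensembl ID with a symbol. For the same reason, the YTH readers and other m6A genes listed for comparison were not analysed here.

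Gene-assigned reads numbered 6847731 to 8465453 in the IP libraries and 10029733 to 14704617 in the Input libraries. Gene IDs with a read numbered 19991, 18501 and 14200 in IP replicates 1, 2 and 3. In the Input they numbered 33344, 29354 and 26250. IP replicate 3 thus had the fewest of all libraries, and the part of this in the results below was not tested. Reads that the counting assigned to no feature made up 71.2% to 72.1% of the IP files and 49.6% to 51.6% of the Input files, a difference that moved with the groups and whose part in the results below was not tested. Levels are given in CPM, the reads of a gene per 1000000 reads of tested genes, with library sizes adjusted by TMM factors. They are not divided by transcript length, so each gene is compared with itself between IP and Input and not with the other genes. All 9 genes passed the filter on low counts, and 6 of them lay above the upper quartile of mean level of all tested genes, 49.9 CPM.

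Of the 9 genes, Fto was enriched in the YTHDF2 IP and Alkbh5 was depleted, and the 7 writer complex genes did not pass the test in either direction. The erasers therefore moved in opposite directions, each by about 2-fold, while the writer estimate furthest from no change was that of Wtap, 1.43-fold lower in the IP. Over all 15615 genes tested, 10.4% were called, 4.33% as enriched and 6.11% as depleted. Among genes above the upper quartile of level, 31.5% were called, and of the 6 genes of the set in that range 2 were (33.3%). The share of the set that was called is thus near that of genes of like level. The median over the 9 genes, on the log2 scale of IP over Input, was 0.05, against -0.12 for all tested genes and 0.10 for those above the upper quartile.

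Fto (ENSMUSG00000055932.15), the eraser best known for its link to body weight, had 162, 135 and 95.8 CPM in IP replicates 1, 2 and 3 and 77.9, 60.6 and 52.8 CPM in the same-numbered Input libraries. These values rest on 807 to 1382 reads per IP library and 574 to 1081 per Input library. Every IP library lay above every Input library, and the lowest IP value exceeded the highest Input value by less than either group's range. The means were 131 ± 33.2 CPM (SD, n = 3) and 63.8 ± 12.9 CPM (SD, n = 3). The log2 fold change was 1.04 ± 0.27 (SE), a 2.05-fold enrichment with a 95% interval of 1.35 to 3.11, and the adjusted p was 0.0381 in edgeR's quasi-likelihood test. The IP held 2.08, 2.22 and 1.82 times the Input level in replicate numbers 1, 2 and 3. Its log2 fold change was at percentile 84.6 of all tested genes and at percentile 92.1 of those above the upper quartile of level.

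Alkbh5 (ENSMUSG00000042650.3), the other eraser, had 80.4, 110 and 144 CPM in IP replicates 1, 2 and 3 and 190, 195 and 233 CPM in the Input. The reads behind these values numbered 687 to 1211 per IP library and 1847 to 2688 per Input library. Every IP library lay below every Input library. The IP mean was 111 ± 31.7 CPM (SD, n = 3), and the Input mean was 206 ± 23.6 CPM (SD, n = 3). Its log2 fold change was -0.88 ± 0.24 (SE), which puts the IP at 0.542 times the Input with a 95% interval of 0.374 to 0.785, and the adjusted p was 0.0450 in edgeR's quasi-likelihood test. Within replicate numbers 1, 2 and 3 the IP held 0.424, 0.565 and 0.618 times the Input level. The log2 fold change of Alkbh5 was at percentile 29.0 of all tested genes. It was at percentile 19.1 of those above the upper quartile of level, so many genes were lower still. Groups that do not overlap were found for 2 of the 9 genes, Fto and Alkbh5, and for 36.5% of all tested genes, with the IP higher in 12.8% and lower in 23.7%. Above the upper quartile of level the groups did not overlap for 56.4% of genes, against 2 of the 6 genes of the set in that range (33.3%).

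**Figure D1:**
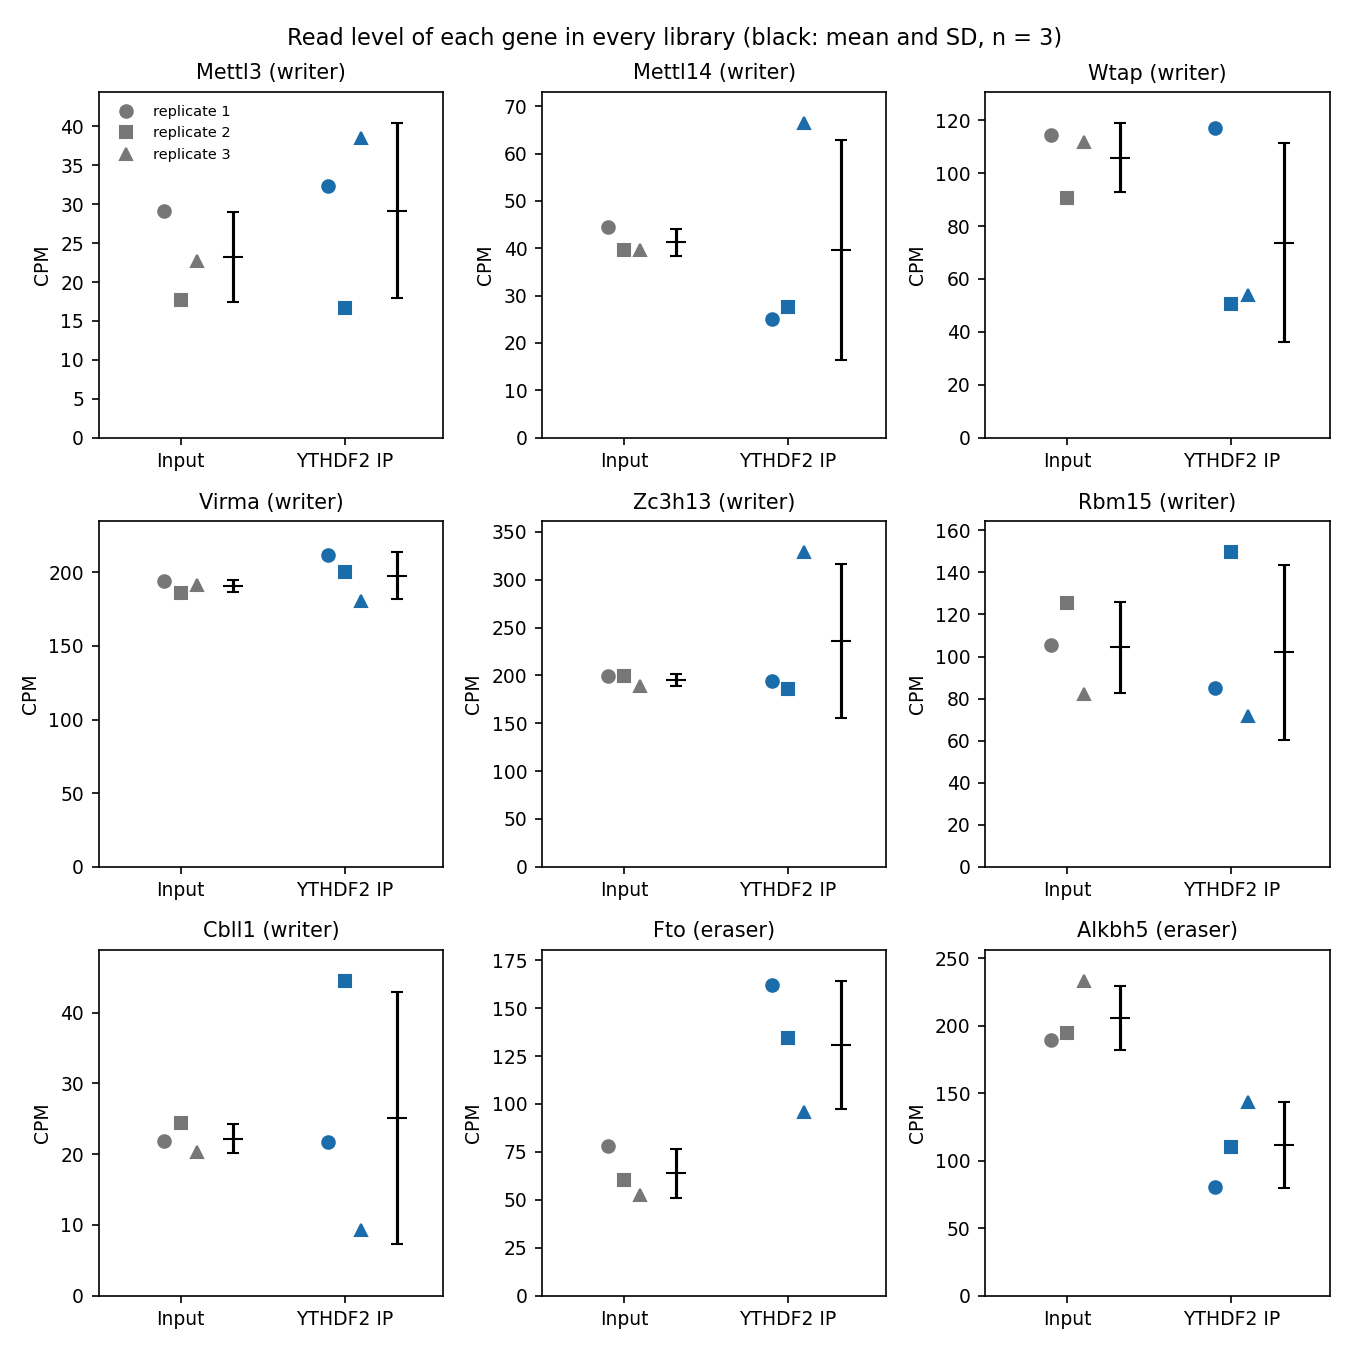
Read level in CPM (vertical axes, from 0, scaled for each gene) of the 9 genes in the Input and YTHDF2 IP libraries; point shapes mark the replicate number and black bars the mean and SD of 3 libraries. Fto lies at 95.8 to 162 CPM in the IP, above all Input libraries, and Alkbh5 at 80.4 to 144 CPM, below all Input libraries, while the groups overlap for the other 7 genes.

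Both calls lay close to the threshold of 0.05 and changed with the libraries used and with the scaling. Fto was called in 8 of the 15 alternatives and Alkbh5 in 5. The Fto call was lost without IP replicate 1 or 2, with adjusted p-values of 0.126 and 0.118, and without Input replicate 1, 2 or 3, with 0.0657, 0.189 and 0.227, in edgeR fits that have fewer libraries. It was kept without IP replicate 3 (adjusted p = 0.00878), and it was lost with library sizes taken from all reads in the file, where its log2 fold change was 0.50 and the adjusted p 0.282. The Alkbh5 call was lost without the same 5 libraries, with adjusted p-values of 0.0841 and 0.102 (IP replicates 1 and 2) and 0.0664, 0.0839 and 0.163 (Input replicates 1, 2 and 3). It was kept without IP replicate 3, with an adjusted p of 0.00527. It was also lost with upper quartile factors (0.110), total gene counts (0.0869), DESeq2's Wald test (0.0650) and a filter of at least 50 reads on average (0.0563), and with library sizes from all reads its log2 fold change was -1.41 with an adjusted p of 0.00481. Neither gene passed edgeR's test against a 1.5-fold change, with adjusted p-values of 0.169 for Fto and 0.257 for Alkbh5. Both calls were kept with limma voom (adjusted p 0.0283 for Fto and 0.0197 for Alkbh5), and in edgeR with no filter on low counts and with a replicate block. In the 5 fits without a library that lost both calls, 1.09% to 2.08% of all tested genes were enriched and 3.26% to 4.62% depleted. With all libraries these shares were 4.33% and 6.11%. The estimated direction was the same in all 15 alternatives for each of the erasers, with log2 fold changes of 0.50 to 1.23 for Fto and -1.41 to -0.68 for Alkbh5. The test against 1.5-fold repeats the reported estimate. Since the groups do not overlap for either gene, leaving out a library could hardly turn the sign. Agreement in direction was therefore partly fixed in advance.

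**Figure D2:**
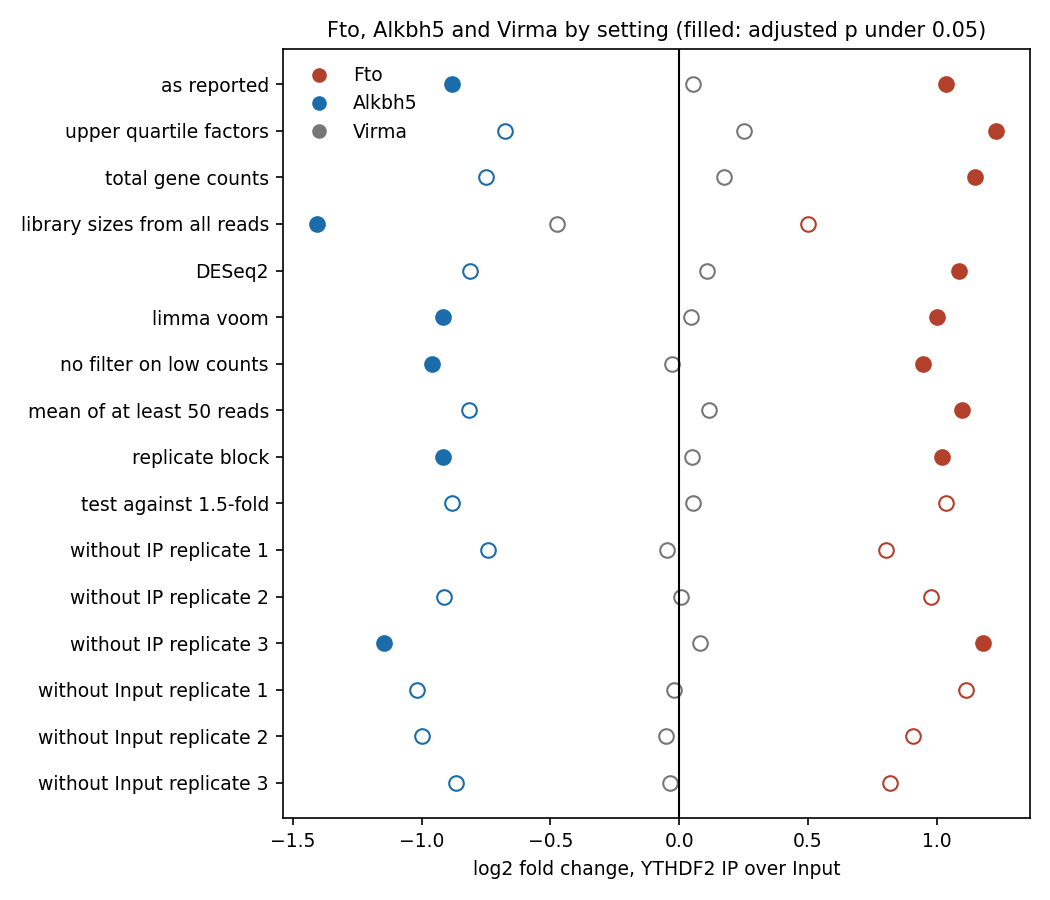
Log2 fold change of the IP over the Input (horizontal axis) for Fto, Alkbh5 and Virma under the reported setting and each of the 15 alternatives (vertical axis); filled points have an adjusted p under 0.05. Fto stays between 0.50 and 1.23 and Alkbh5 between -1.41 and -0.68, and Virma lies on either side of 0.

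A comparison inside each library does not depend on how libraries are scaled to each other. The number of Fto reads per Alkbh5 read was 2.01, 1.22 and 0.666 in IP replicates 1, 2 and 3. In Input replicates 1, 2 and 3 it was 0.411, 0.311 and 0.227. The IP libraries thus all lay above the Input libraries, by 4.89-, 3.93- and 2.94-fold within the same replicate number. The mean log2 ratio of the IP libraries was 0.24 ± 0.80 (SD, n = 3), against -1.70 ± 0.43 (SD, n = 3) for the Input, a difference of 1.94. An exact permutation test, two-sided, gave p = 0.1, the smallest that 3 against 3 libraries allow, and this pair was compared after the values had been seen.

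Each gene's share of the reads of all 9 genes draws on the same counts as its level, so it is not separate support. These shares showed the same separation. Fto made up 17.4%, 14.6% and 9.69% of the reads of all 9 genes in IP replicates 1, 2 and 3 and 7.98%, 6.45% and 5.60% in the Input. Its mean share was 13.9% ± 3.91 (SD, n = 3) in the IP, against 6.68% ± 1.21 (SD, n = 3) in the Input. Alkbh5 made up 8.65%, 12.0% and 14.5% in the IP and 19.4%, 20.8% and 24.7% in the Input. The mean for Alkbh5 was 11.7% ± 2.96 (SD, n = 3) against 21.6% ± 2.76 (SD, n = 3). For both erasers the exact permutation test gave p = 0.1, or 0.45 after adjustment over the 9 genes, so neither share passed; with 3 libraries a group no share could have. The shares of all 7 writer genes overlapped between the groups, with p-values of 0.4 to 1.0 in the same exact test. As a share of all gene-assigned reads, Virma too had groups that did not overlap, with the 3 IP libraries above the Input. How many of all tested genes did so on that scale was not counted. In CPM, the IP lay above the Input without overlap for 12.8% of all tested genes and 28.5% of those above the upper quartile of level. A share falls when another gene's share rises, so the 9 values are not independent.

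**Figure D3:**
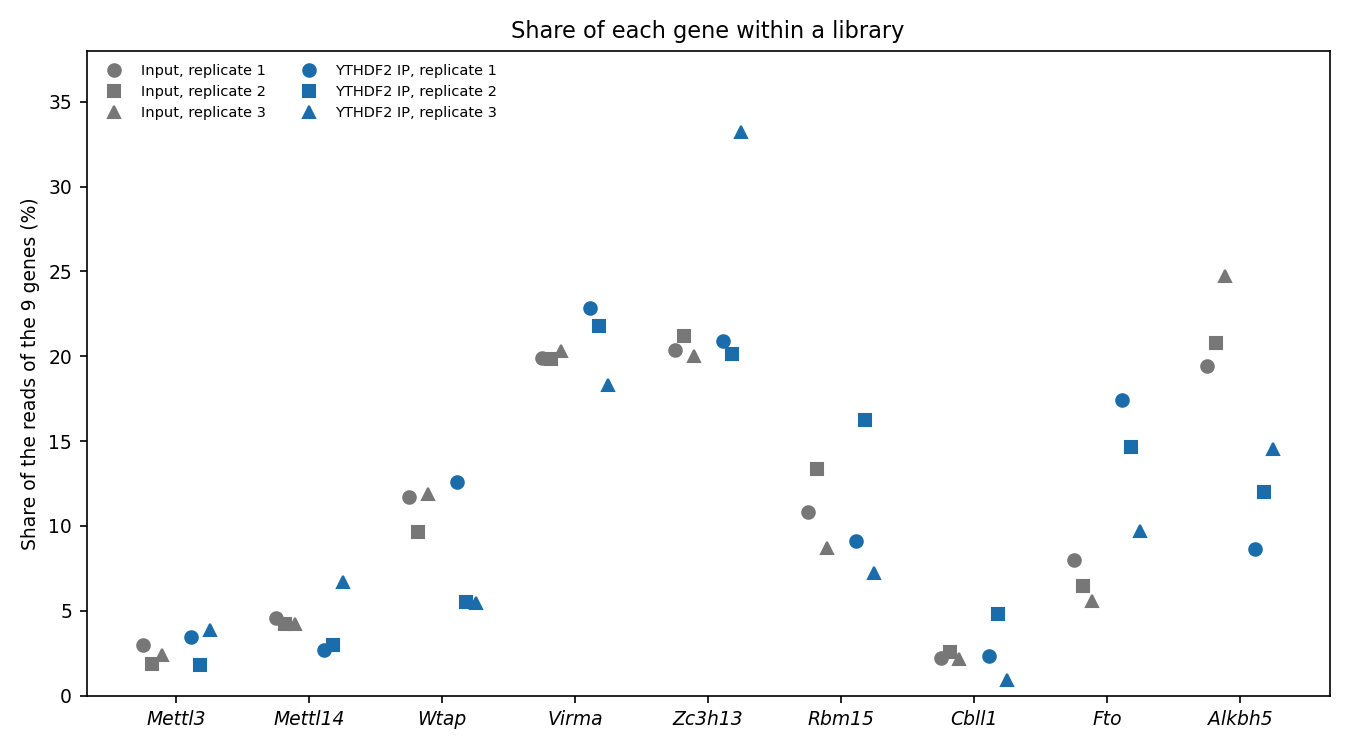
Share of each gene in the summed reads of the 9 genes (vertical axis, percent) in each library; grey marks the Input, blue the YTHDF2 IP, and point shapes the replicate number. The Fto shares are 9.69% to 17.4% in the IP and 5.60% to 7.98% in the Input, the Alkbh5 shares are 8.65% to 14.5% and 19.4% to 24.7%, and the other 7 genes overlap between the groups.

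Summed over the 9 genes, the IP libraries had 946 ± 37.4 CPM (SD, n = 3), and the Input libraries had 952 ± 21.0 CPM (SD, n = 3). These sums overlapped. As a percent of all gene-assigned reads, with no TMM factors, the same sum was 0.0938%, 0.0925% and 0.107% in IP replicates 1, 2 and 3 and 0.0921%, 0.0887% and 0.0902% in the Input. On that scale every IP library lay above every Input library (exact two-sided permutation test, p = 0.1), so the direction of the sum depends on the scaling. The 7 writer genes together had 687, 674 and 749 CPM in IP replicates 1, 2 and 3 and 709, 683 and 656 CPM in the Input. These writer sums overlapped, and their difference was less than the spread between libraries (exact two-sided permutation test, p = 0.6).

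In the catalytic core, neither Mettl3 nor Mettl14 passed the test. Mettl3 (ENSMUSG00000022160.18), the methyltransferase, had 32.3, 16.7 and 38.5 CPM in IP replicates 1, 2 and 3 and 29.2, 17.7 and 22.7 CPM in the Input. Replicate 2 was the lowest in both groups. For Mettl3 the log2 fold change was 0.33 ± 0.48 (SE), with a 95% interval from 0.599-fold to 2.64-fold, and the adjusted p was 0.777 in edgeR's test. Mettl14 (ENSMUSG00000028114.16), its RNA-holding partner, had 25.1, 27.6 and 66.4 CPM in the IP and 44.6, 39.7 and 39.6 CPM in the Input. IP replicates 1 and 2 lay below the Input and IP replicate 3 lay above it. The log2 fold change of -0.06 ± 0.43 (SE) therefore averages libraries on either side of the Input (interval 0.494-fold to 1.87-fold, adjusted p = 0.967 in edgeR's test), and it turned with single libraries: it was -0.68 without IP replicate 3 (adjusted p = 0.158 in edgeR's test), 0.14 without IP replicate 1 and 0.10 without IP replicate 2. The number of Mettl14 reads per Mettl3 read was 0.775, 1.65 and 1.73 in the IP and 1.53, 2.24 and 1.74 in the Input, and these ratios overlapped.

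Among the accessory genes, Virma gave the most precise estimate of the set. Virma (ENSMUSG00000040720.15) is the large scaffold protein of the complex, and its mRNA had 212, 200.3 and 181 CPM in IP replicates 1, 2 and 3 and 194, 186 and 191 CPM in the Input. The log2 fold change was 0.05 ± 0.16 (SE), with a 95% interval of 0.809-fold to 1.33-fold and an adjusted p of 0.906 in edgeR's test. A 2-fold change in either direction lies outside that interval at this scaling. With library sizes from all reads the log2 fold change was -0.48 and the adjusted p 0.0835, and the sign also turned in 5 other alternatives with values near 0.

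Wtap (ENSMUSG00000060475.13), the adaptor that brings the heterodimer to nuclear speckles, had 117, 50.5 and 53.8 CPM in IP replicates 1, 2 and 3 and 115, 90.7 and 112 CPM in the Input. IP replicate 1 lay at the level of the Input, and IP replicates 2 and 3 lay below all Input libraries. The log2 fold change was -0.52 ± 0.34 (SE) and the adjusted p 0.430 in edgeR's test. Without IP replicate 1 the log2 fold change was -1.07 and the adjusted p 0.0430 in edgeR's test. This was the 1 alternative of 15 in which a writer gene passed. The direction for Wtap was the same in all 15, so its size and the missing call, not its direction, changed with that library. Zc3h13 (ENSMUSG00000022000.11), a zinc finger protein that holds the complex in the nucleus, had 194, 185 and 328 CPM in the IP and 199, 199 and 188 CPM in the Input. IP replicate 3 stood above the other libraries, and the log2 fold change of 0.27 ± 0.23 (SE; adjusted p = 0.583 in edgeR's test) became -0.08 without it. That library also had the fewest gene IDs with a read.

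Rbm15 (ENSMUSG00000048109.10), an RNA-binding protein that recruits the complex to its targets, had 84.9, 150 and 71.7 CPM in IP replicates 1, 2 and 3. In the Input it had 106, 125 and 82.1 CPM in the same order. Replicate 2 was the highest and replicate 3 the lowest in both groups. For Rbm15 the log2 fold change was -0.03 ± 0.31 (SE), and the adjusted p was 0.974 in edgeR's test. Cbll1 (ENSMUSG00000020659.16), also called Hakai, is a RING finger protein of the complex. It had 21.7, 44.4 and 9.26 CPM in IP replicates 1, 2 and 3 and 21.9, 24.4 and 20.3 CPM in the Input. The IP libraries lay at, above and below the Input level in that order. For Cbll1 the log2 fold change was 0.18 ± 0.59 (SE), with a 95% interval of 0.450-fold to 2.84-fold and an adjusted p of 0.916 in edgeR's test; without IP replicate 2 it was -0.55.

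**Figure D4:**
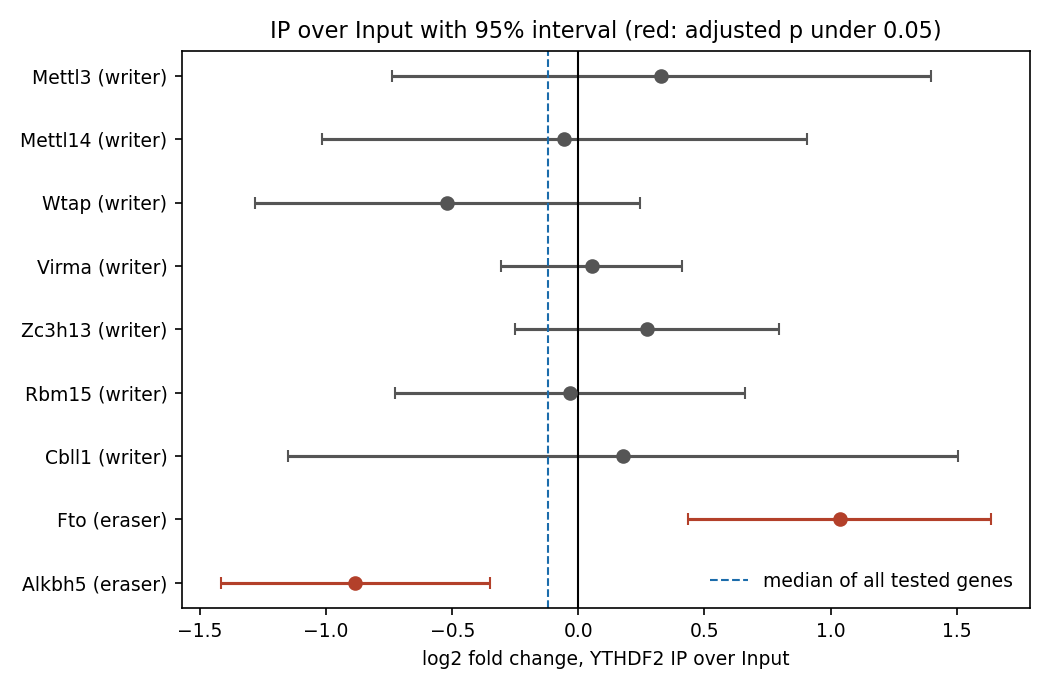
Log2 fold change of the YTHDF2 IP over the Input (horizontal axis) for the 9 genes, with 95% intervals from edgeR's fit; the dashed line is the median of all tested genes, -0.12, and red marks an adjusted p under 0.05. The intervals of Fto and Alkbh5 lie on opposite sides of 0, Virma has the narrowest interval and Cbll1 the widest.

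The genes also differed in how far the IP libraries spread around their mean. The coefficient of variation (CV, the SD over the mean) was 8.00% for Virma, 25.4% for Fto, 28.4% for Alkbh5, 34.0% for Zc3h13 and 38.5% for Mettl3 in the IP. It was 40.8% for Rbm15, 50.8% for Wtap, 58.4% for Mettl14 and 71.0% for Cbll1. In the Input the CV of the 9 genes ranged from 2.15% for Virma to 24.8% for Mettl3, with a median of 11.5% against 38.5% in the IP. Counting error alone gives 2.52% for Virma and 7.26% for Cbll1 at their mean reads in the IP. The reads of Cbll1 ranged from 78 to 306 per IP library. Among genes above the upper quartile of level, the median CV of IP libraries was 24.2% and that of Input libraries 11.6%. Wtap and Rbm15 lay at percentiles 89.7 and 80.1 of that range for the CV in the IP, and Virma at percentile 8.50. Fto, Alkbh5 and Zc3h13 lay at percentiles 52.9, 60.0 and 70.2 of it. Mettl3, Mettl14 and Cbll1 had levels between the median and the upper quartile. Among genes of that level their IP CVs were at percentiles 33.3, 58.5 and 71.7. A missing call for a writer gene, Virma apart, thus leaves a change of up to 1.5-fold or more in at least 1 direction inside its interval.

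The genes lie on 7 chromosomes of the mouse build GRCm38 (mm10), and their positions are from RefSeq. Fto spans 355067 bases of chromosome 8, from 91313367 to 91668433, and a long noncoding RNA, 4831440D22Rik, lies within that span over 17152 bases. Alkbh5 lies on chromosome 11 from 60537683 to 60558512, and no other RefSeq gene overlaps it. Mettl3 (chromosome 14, 52294841 to 52308741) shares 669 bases with Tox4. Rbm15 (chromosome 3, 107305511 to 107334460) shares 6605 bases, 22.8% of its span, with Slc16a4. Cbll1 (chromosome 12, 31484829 to 31500676) shares 1057 bases with a noncoding RNA, Gm40362, and Zc3h13 (chromosome 14, 75284306 to 75344433) holds a pseudogene of 370 bases, Gm46470. How reads in such shared stretches were assigned is not given in the sources used here, so the counts of Mettl3, Rbm15, Cbll1, Zc3h13 and Fto are uncertain to that extent. Mettl14 (chromosome 3, 123368295 to 123385990), Wtap (chromosome 17, 12966799 to 12992543) and Virma (chromosome 4, 11485958 to 11551143) overlap no other RefSeq gene. Transcript sequences were not used here, so m6A consensus motifs in these mRNAs were not counted.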

How the data were processed

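Each deposited file holds the raw counts of 1 library by Ensembl gene ID. The authors worked with the build mm10, and the submitters' processing notes list DESeq2, HTSeq, HISAT2 2.1.0 and Trimmomatic 0.39. No source used here gives the roles of these tools, the annotation release or the strand setting. The 92 spike-in IDs and 5 summary categories stayed out of library sizes and tests. Counts were tested with edgeR 4.0.16 in R 4.3.3 (filterByExpr, TMM, robust quasi-likelihood F-test, group as the only term, two-sided), with Benjamini-Hochberg adjustment over 15615 genes and calls at an adjusted p under 0.05. Standard errors came from the F statistics and 95% intervals from the fit's degrees of freedom. The test was checked on counts simulated with the same spread in both groups. That check does not cover the larger spread among the IP libraries. Shares and ratios were compared by exact permutation over libraries. Alternatives were other scalings, filters and tools (DESeq2 1.42.0, limma 3.58.1), a replicate block and leaving out each library. All 9 genes are named whatever their values. The genes and lists were chosen with earlier results of these data known. No other gene was named by likeness of pattern, and levels per length were not computed, since IDs had no symbols or transcript lengths. The counting errors given for Virma and Cbll1 cover counting alone and take every read as separate, since the files hold no molecular identifiers. The 95% intervals of the fit also cover the spread between libraries.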

Additional observations from a re-analysis of the deposited data

How the results depend on the processing

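The number of genes called enriched was 1 (Fto) as reported, 0 with library sizes from all reads and 0 in the test against 1.5-fold, and 0 to 1 with a library left out. Over all tested genes the share enriched was 4.33%, 0.942%, 1.31% and 1.09% to 5.25% in the same order. The number called depleted was 1 (Alkbh5) as reported, 0 with upper quartile factors, total gene counts, DESeq2, the filter of 50 reads and the test against 1.5-fold, and 0 to 1 with a library left out, where the 1 gene was Wtap without IP replicate 1 and Alkbh5 without IP replicate 3. Over all tested genes the share depleted was 6.11%, then 5.13%, 5.60%, 10.0%, 9.01%, 3.78% and 3.26% to 8.73% in the same order. Before adjustment, the p of each eraser was under 0.05 in all these alternatives, DESeq2 included, with the exception of Fto with library sizes from all reads. Genes whose shares did not overlap numbered 2 of 9 as reported, 2 to 4 with a library left out, 3 (Virma, Fto and Alkbh5) as shares of all gene-assigned reads, and 0 of 7 for shares among the writers alone, which leave out both erasers. Groups with fewer libraries separate more easily, so the counts with a library left out are not like the others. The same counts over all tested genes were not made for shares. In CPM with all libraries, 36.5% of tested genes did not overlap. Fto, Alkbh5 and Wtap kept their direction in all 15 alternatives; the other 6 genes, none of them called, turned sign in 1 to 7. With library sizes from all reads, which move all genes shared with the reported setting by a median of -0.53, the log2 fold changes were -0.20 for Mettl3, -0.48 for Virma, -0.25 for Zc3h13 and -0.35 for Cbll1. With upper quartile factors, total gene counts, DESeq2 and the 50-read filter they were 0.16, 0.092, 0.027 and 0.012 for Mettl14 and 0.16, 0.080, 0.023 and 0.033 for Rbm15. Upper quartile factors and total gene counts move the median by 0.20 and 0.11. Virma had -0.028 with no filter, and Cbll1 -0.16 with limma voom and -0.087 with a replicate block. With a library left out, the log2 fold change ranged from 0.05 to 0.57 for Mettl3, -0.68 to 0.14 for Mettl14, -0.050 to 0.081 for Virma, -0.076 to 0.38 for Zc3h13, -0.45 to 0.13 for Rbm15 and -0.55 to 0.54 for Cbll1. For these shifts the cause was not tested.
The replicate block changed no call: the adjusted p was 0.00995 for Fto and 0.00638 for Alkbh5, and the mean within-number difference in share was 7.24 percentage points for Fto and -9.90 for Alkbh5, the 2 genes with 1 sign in all 3 numbers. Same-numbered libraries' deviations from the group means, on log2(CPM + 1), correlated at 0.13, 0.04 and 0.02 over all tested genes and at 0.34, 0.19 and 0.04 above the upper quartile of level. An Input was kept from each lysate, but the labels do not say that a shared number marks 1 lysate. The libraries were therefore treated as unpaired in the reported fit. The third pair stayed under 0.1, but these values cannot exclude pairing. Cbll1 had the fewest reads of the set in any library, 78 in IP replicate 3. Its counting error at the mean IP reads was 7.26%, beside an IP CV of 71.0%.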

Other observations

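The summed level of Fto and Alkbh5 was 242, 245 and 240 CPM in IP replicates 1, 2 and 3, although each gene varied by over 25% (CV) among these libraries. In the Input the sum was 268, 255 and 286 CPM. This sum was examined after the values had been seen.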
